A study of Homo sapiens with 12 samples.

Results

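The mitochondrial genome of human cells encodes 37 RNAs, and all of them were listed in the gene tables analysed here. They were chosen by symbol, as every gene whose identifier mapped to a name beginning with MT-, and comprise 13 mRNAs, 2 rRNAs and 22 tRNAs among 56632 genes. Their levels were followed through the free, monoribosomal (mono) and polyribosomal (poly) fractions of sucrose gradients from WT and CBFB_KO MCF10A cells, with 2 replicates of each, giving 12 libraries. MCF10A is a non-tumorigenic human mammary epithelial line, and the comparison asks how RNA is distributed over ribosome fractions with and without CBFB, the partner protein of the RUNX transcription factors. The CBFB_KO cells were made by CRISPR editing followed by selection of single clones, so a clone difference and an effect of losing CBFB cannot be told apart. Cells of both genotypes received cycloheximide, an inhibitor of cytosolic ribosomes, before lysis with detergents and removal of debris by centrifugation.

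Human mitochondrial DNA is transcribed from both strands as long precursors, from which rRNAs and mRNAs are cut out, mostly at the tRNAs that lie between them. The mRNAs encode subunits of respiratory complexes I, III, IV and V, and are read by mitochondrial ribosomes inside the organelle. Cycloheximide does not act on those ribosomes. In a gradient of a detergent lysate, mitochondrial RNA can therefore sit among the cytosolic fractions without being bound to cytosolic ribosomes.

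Sequences were taken from GENCODE release 29 (GRCh38), whose lengths equalled the gene lengths in the tables for 37 of 37 RNAs. The submitters' processing notes name hg19, so the coordinates given are those of GRCh38 only. All members lie on chromosome M, and none has an intron. The first 2 lines show where 1 mRNA carries the end of one reading frame and the start of the next, with the shared bases in capitals. Of these, 46 are shared by MT-ATP8 and MT-ATP6 at chrM:8527-8572 and 7 by MT-ND4L and MT-ND4 at chrM:10760-10766, all on the plus strand, and 15 bases of each gene are shown on either side. Reads in these stretches can be assigned to either gene, so the split between the members of each pair is uncertain.
MT-ATP8/MT-ATP6: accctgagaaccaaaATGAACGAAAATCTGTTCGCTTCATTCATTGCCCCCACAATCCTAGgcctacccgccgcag
MT-ND4L/MT-ND4: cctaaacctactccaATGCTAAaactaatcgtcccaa

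The next lines give the first 30 bases of 2 mRNAs, with the start codon in capitals. They show the contrast in base content between MT-ND6 (chrM:14149-14673, minus strand) and mRNAs of the other strand such as MT-CO2 (chrM:7586-8269).
MT-ND6 first 30 bases: ATGatgtatgctttgtttctgttgagtgtg
MT-CO2 first 30 bases: ATGgcacatgcagcgcaagtaggtctacaa
Of the 13 mRNAs, MT-ND6 is the only one of the minus strand. Its sequence held 35.6% G and 7.0% C, whereas MT-CO2 held 14.9% G and 31.3% C. The strand setting of the counting was not given in the sources used here, so reads of MT-ND6 and of RNA antisense to it cannot be told apart, and the same holds for every member.

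The expected counts, which are RSEM's estimates of the reads of each gene, summed to between 41050325 and 63886726 per library. The 2 CBFB_KO free libraries had 13568143 and 5247878 counts outside the mitochondrial genome, against at least 43279862 elsewhere. The CBFB_KO free libraries therefore stood apart before any gene was tested. The calls and log2 changes between genotypes in free are also given without CBFB_KO replicate 2, whose free library is the smaller of the 2. Leaving out a replicate removed its free, mono and poly libraries together. Whether a lost call rests on the free library or on the smaller fit was not tested. The 2 CBFB_KO poly libraries were nearly identical. Their counts differed by 2.26 times the variance of counting on average over genes, compared with 129 to 962 times for the other replicate pairs. Whether they came from 2 gradients or are 1 library sequenced again was not settled here, so tests were repeated with their mean as 1 sample. The basal markers KRT5 and KRT17 were detected in every library at 83.9 to 2101 and 5.58 to 2055 TPM, and PTPRC, CDH5, COL1A2 and LUM, markers of leukocytes, endothelium and fibroblasts, were listed at 0 in all. CBFB itself ranged from 1.36 to 5.94 TPM in WT and from 0.46 to 2.04 in CBFB_KO and passed no edgeR test between genotypes (adjusted p = 0.373 in free and 1 in mono and poly), which checks the labels little, since a frameshift need not remove the mRNA. The labels do not say whether replicates came from separate cultures, so p-values measure the spread between these libraries only.

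The mitochondrial share of counts was highest in the free fraction, and CBFB_KO free libraries were mostly mitochondrial mRNA. These are shares within each library, which do not show how much mitochondrial RNA each fraction held. The 13 mRNAs took 9.56% and 18.4% of all counts in WT free replicates 1 and 2, and 70.3% and 85.3% in CBFB_KO free. In mono they took 4.18% and 8.01% in WT and 4.54% and 7.0% in CBFB_KO. In poly they took 1.25% and 1.37% in WT and 1.58% and 1.58% in CBFB_KO. The genotypes did not overlap in free or in poly (in poly they did when TPM replaced counts), but did in mono, where replicate 2 was the higher library of both genotypes. Over all 37 members the share was 16% ± 6.87 (SD, n = 2) in WT free and 79.4% ± 11.1 (SD, n = 2) in CBFB_KO free. This difference has a two-sided exact permutation p of 0.333, the smallest that 2 against 2 libraries allow. A larger mitochondrial share and a smaller amount of other RNA in a library cannot be told apart in such data, nor can fewer cells and less RNA per cell. Put against the rest of the library, the mitochondrial counts were 12.5% and 26.3% of all other counts in WT free, and 252% and 682% in CBFB_KO free.

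**Figure D1:**
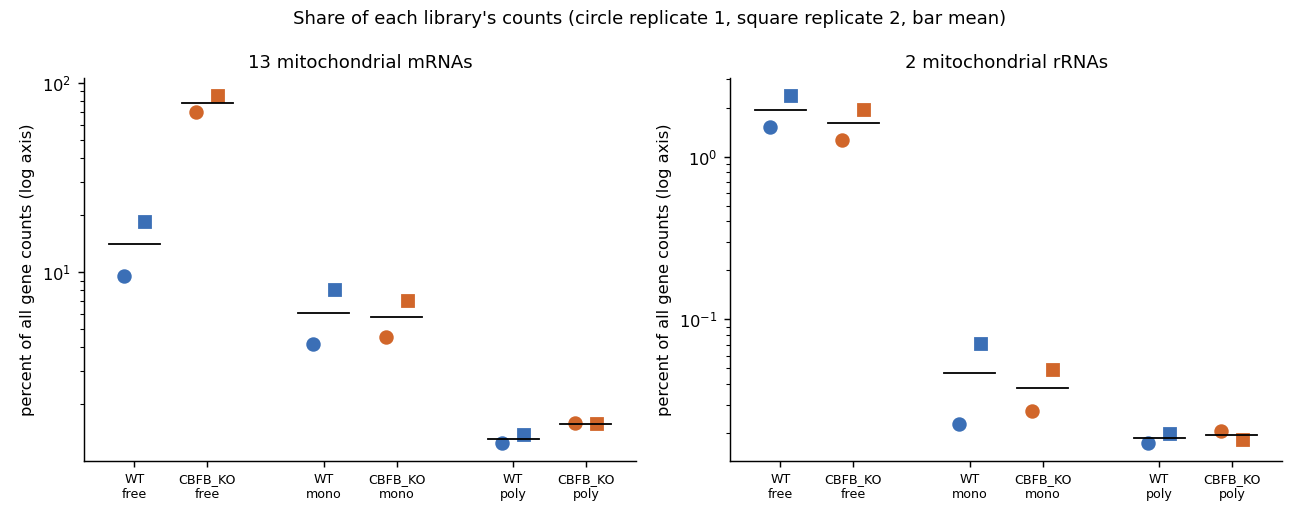
The percent of all gene counts on the 13 mitochondrial mRNAs (left) and the 2 mitochondrial rRNAs (right) is plotted on log axes for each library, WT in blue and CBFB_KO in orange. The mRNAs reach 70.3% and 85.3% in CBFB_KO free against 9.56% and 18.4% in WT free, whereas the rRNAs of the 2 genotypes overlap there.

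Between fractions the share fell in order from free to mono to poly. Over both genotypes it was 47.7% ± 37.4 (SD, n = 4) in free, 5.97% ± 1.89 (SD, n = 4) in mono and 1.46% ± 0.165 (SD, n = 4) in poly. No library of one fraction overlapped those of another, and each of the 3 comparisons of 4 against 4 libraries had a two-sided exact permutation p of 0.0286 (adjusted p = 0.0490 over 24 values), which is the smallest p this size allows. With the CBFB_KO poly libraries counted as 1 sample the fractions still did not overlap, but none of the 24 adjusted values passed (the lowest exact permutation adjusted p was 0.0857), and the same holds for every comparison of shares between fractions given below with an adjusted p of 0.0490. Fractions with the same replicate number may come from one gradient, which this test does not use. Nor does it use the genotype: libraries were shuffled over both, although WT and CBFB_KO lay far apart in free. Both limits hold for every comparison of shares between fractions below.

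The rRNAs behaved unlike the mRNAs between the genotypes. MT-RNR1, the 12S rRNA of the small mitochondrial ribosomal subunit (chrM:648-1601), took 0.536% and 0.411% of all counts in WT free and 0.165% and 0.101% in CBFB_KO free. MT-RNR2, the 16S rRNA of the large subunit (chrM:1671-3229), took 0.997% and 1.96% in WT free and 1.1% and 1.84% in CBFB_KO free. MT-RNR1 thus separated the genotypes, with WT higher, while MT-RNR2 overlapped. Within the mitochondrial counts of a library, which need no scaling between libraries, the 2 rRNAs together made up 13.8% and 11.4% in WT free and 1.76% and 2.22% in CBFB_KO free (exact permutation p = 0.333, the smallest possible). In mono the same share was 0.538% and 0.879% in WT and 0.60% and 0.692% in CBFB_KO. In poly it was 1.37% and 1.42% in WT and 1.28% and 1.15% in CBFB_KO.

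The free fraction thus held the highest rRNA share in both genotypes and mono the lowest. Over both genotypes the rRNA share of mitochondrial counts was 7.30% ± 6.21 (SD, n = 4) in free, 0.677% ± 0.149 (SD, n = 4) in mono and 1.3% ± 0.122 (SD, n = 4) in poly. The 3 fractions did not overlap (exact permutation p = 0.0286 and adjusted p = 0.0490 in each of the 3 comparisons), though poly and free did when TPM replaced counts. Because the library kit named in the labels selects poly-A RNA and rRNAs carry at most short A tails, these are shares of the rRNA that the kit captured. The general RNA-seq methods of the study name rRNA removal instead, and which of the 2 was used for these libraries was not settled here.

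The 2 rRNAs did not keep a fixed ratio. The count of MT-RNR2 divided by that of MT-RNR1 was 1.86 and 4.76 in WT free and 6.65 and 18.2 in CBFB_KO free. It was 2.82 and 4.55 in WT mono and 2.88 and 4.37 in CBFB_KO mono, and fell to 1.21 and 1.72 in WT poly and 1.40 and 1.47 in CBFB_KO poly. The genotypes did not overlap in free (exact permutation p = 0.333) and overlapped in mono and poly. The ratio in poly lay below every free and mono library (exact permutation p = 0.0286, adjusted p = 0.0490 in both comparisons), whereas mono and free overlapped (p = 0.314 in the exact permutation test, adjusted p = 0.343).

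**Figure D2:**
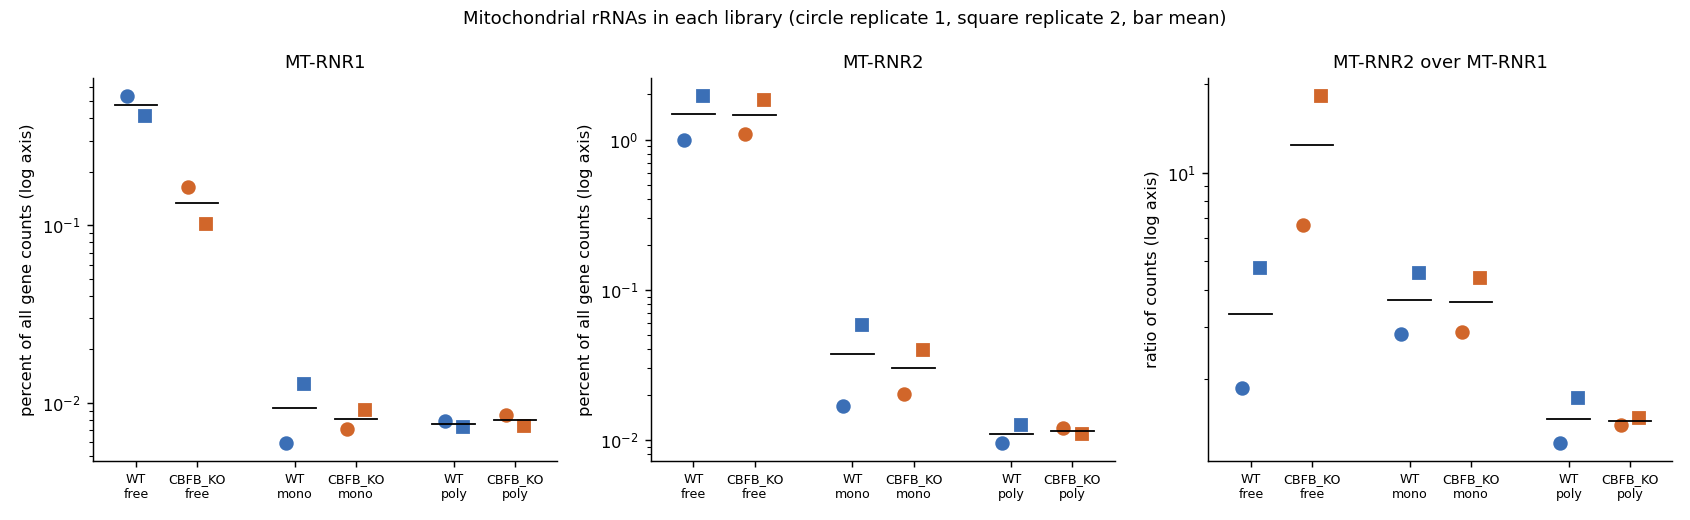
MT-RNR1 and MT-RNR2 are plotted as percent of all gene counts, and their ratio of counts is shown on the right, on log axes for each library, WT in blue and CBFB_KO in orange. MT-RNR1 is lower in both CBFB_KO free libraries than in WT free, MT-RNR2 overlaps, and the ratio reaches 18.2 in CBFB_KO free replicate 2 and at most 1.72 in poly.

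The 22 tRNAs were almost unseen. Their total was 240 counts over all 12 libraries, 216 of them in the 4 free libraries, and 15 tRNAs were at 0 in every library. A count of 0 allows up to 3 counts, which is 4.7e-06% to 7.3e-06% of a library and covers counting error only. The tRNAs are 59 to 75 bases long, shorter than the mean fragment of 179 to 230 bases that the tables' effective lengths imply, and their effective length was 0 in every library. Their counts therefore say little about the amount of tRNA. Of the 7 tRNAs seen at all, 6 are on the minus strand, which holds 8 of the 22. MT-TS1, a serine tRNA that lies on the opposite strand just after the end of MT-CO1, had the most, with 122 counts. Its sequence, at chrM:7446-7514, is shown because the MT-CO1 mRNA runs on into bases antisense to it, and without strand the 2 cannot be told apart.
MT-TS1: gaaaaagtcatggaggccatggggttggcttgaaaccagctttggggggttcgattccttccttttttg
MT-TS1 had 50 and 29 counts in WT free, 22 and 2 in CBFB_KO free, and 0 to 4 in mono and poly. MT-TA, an alanine tRNA, had 0 and 19 counts in WT free, 14 and 18 in CBFB_KO free, and 0 to 2 elsewhere. MT-TN, MT-TQ and MT-TE, the asparagine, glutamine and glutamate tRNAs, had 25, 25 and 11 counts in all. MT-TS1 and MT-TA passed the filter on low counts. Both were called lower in mono than in free of CBFB_KO (edgeR adjusted p = 0.0432 and 0.0353), where MT-TS1 had 1 count in each mono library and MT-TA had 0. Neither was called without either CBFB_KO replicate (adjusted p = 0.294 and 0.41 without replicate 2), without TMM factors, with the replicate number as a block or with the CBFB_KO poly libraries as 1 sample (adjusted p = 0.092 and 0.0526).

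In the free fraction 14 of the 15 mRNAs and rRNAs were higher in CBFB_KO than in WT and none was lower, in edgeR's quasi-likelihood test with TMM scaling at a Benjamini-Hochberg adjusted p under 0.05 over 16275 genes. In the same comparison 24.2% of all genes tested were called higher and 18.1% lower. Such shares of all genes are given here and below for this edgeR fit only. Counts of calls in other fits therefore stand without their background. The median log2 change was 4.52 for the 15 members and 0.04 for all genes. Without CBFB_KO replicate 2, 11 of the 15 were called higher and the median log2 change of the 15 fell to 3.52. Without WT replicate 1 likewise 11 were called, with a median of 4.25.

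All 7 complex I mRNAs were called higher. MT-ND5 took 0.0724% and 0.296% of all counts in WT free and 2.81% and 4.03% in CBFB_KO free, a log2 change of 6.21 (SE 0.82, edgeR adjusted p = 0.000375). MT-ND4L took 0.0354% and 0.362% in WT free and 1.54% and 2.56% in CBFB_KO free (log2 change 5.41, SE 1.04, edgeR adjusted p = 0.0031). These log2 changes were 5.24 and 4.28 without CBFB_KO replicate 2 (edgeR adjusted p = 0.00267 and 0.0283). Both were high in both CBFB_KO libraries, but the WT replicates of MT-ND4L themselves lay far apart. MT-ND2 illustrates this further, with 0.694% and 4.13% in WT free against 5.48% and 8.05% in CBFB_KO free. Its log2 change of 3.50 (SE 0.85, edgeR adjusted p = 0.00916) was not called without CBFB_KO replicate 2 (log2 change 2.50, adjusted p = 0.0817), nor without WT replicate 1 (adjusted p = 0.061). MT-ND4 took 0.582% and 4.07% in WT free and 9.59% and 8.63% in CBFB_KO free. MT-ND1 took 0.514% and 1.85% against 2.64% and 4.81%, MT-ND3 0.216% and 0.272% against 1.16% and 1.89%, and MT-ND6 0.0708% and 0.203% against 0.410% and 0.473%. The WT and CBFB_KO libraries overlapped for none of these genes. MT-ND1, MT-ND3, MT-ND4 and MT-ND6 had log2 changes of 3.70, 4.63, 3.86 and 3.62 and were all called, though MT-ND1 was not without CBFB_KO replicate 2 (adjusted p = 0.0506) and MT-ND6 was not without WT replicate 1 (adjusted p = 0.0519). The 4 values were 2.46, 3.52, 3.36 and 2.88 in that order when CBFB_KO replicate 2 was left out.

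MT-CYB, the only mitochondrial mRNA of complex III, took 0.446% and 0.60% of all counts in WT free and 6.64% and 10.5% in CBFB_KO free (log2 change 6.01, SE 0.64, edgeR adjusted p = 0.000105). Here both WT replicates were close and both CBFB_KO libraries were far above them. The core subunits of complex IV, cytochrome c oxidase, were also higher. MT-CO1 took 1.23% and 1.83% in WT free and 13.5% and 14.1% in CBFB_KO free (log2 change 5.06, SE 0.48, edgeR adjusted p = 7.9e-05). MT-CO2 took 2.07% and 1.54% against 11% and 14.9% (log2 change 4.77), and MT-CO3 2.86% and 1.85% against 6.79% and 7.40% (log2 change 3.46). Without CBFB_KO replicate 2 the log2 changes were 4.94 for MT-CYB, 4.42 for MT-CO1, 3.87 for MT-CO2 and 2.78 for MT-CO3, and all 4 were still called.

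The complex V mRNAs MT-ATP8 and MT-ATP6, which share a transcript, were both higher. MT-ATP8 took 0.0257% and 0.159% of counts in WT free and 1.44% and 2.15% in CBFB_KO free, a log2 change of 6.30 (SE 0.96, edgeR adjusted p = 0.000788). MT-ATP6 took 0.758% and 1.28% against 7.32% and 5.86% (log2 change 4.52, SE 0.60, edgeR adjusted p = 0.000373). Both were still called without CBFB_KO replicate 2, with log2 changes of 5.29 and 4.13. The 2 changes were not tested against each other. Neither rRNA followed the mRNAs. MT-RNR2 was called higher (log2 change 2.00, SE 0.72, edgeR adjusted p = 0.0435), but not without CBFB_KO replicate 2 (adjusted p = 0.42), without WT replicate 1 (0.186), without WT replicate 2 (0.0665) or with the CBFB_KO poly libraries as 1 sample (0.0569). MT-RNR1 was not called (log2 change -0.10, SE 0.46, edgeR adjusted p = 0.878).

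The size of these changes and, for both rRNAs, the call depended on the scaling. The TMM factors were 0.494 and 0.241 for CBFB_KO free and 1.12 and 1.24 for WT free, a scaling that centres the change of all genes near 0. Scaled by library totals instead, the median of all genes was -1.57 and that of the 15 members 2.64, with 11 members called higher and 1 lower. The member called lower was MT-RNR1 (log2 change -1.83, edgeR adjusted p = 0.01), MT-RNR2 was at -0.01 (adjusted p = 0.999), and MT-ND2 and MT-ND6 were no longer called (adjusted p = 0.0886 and 0.0501). MT-ND5, MT-CYB and MT-ATP8 had the 3 highest log2 values under both scalings, and differed among themselves by less than their SEs.

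**Figure D3:**
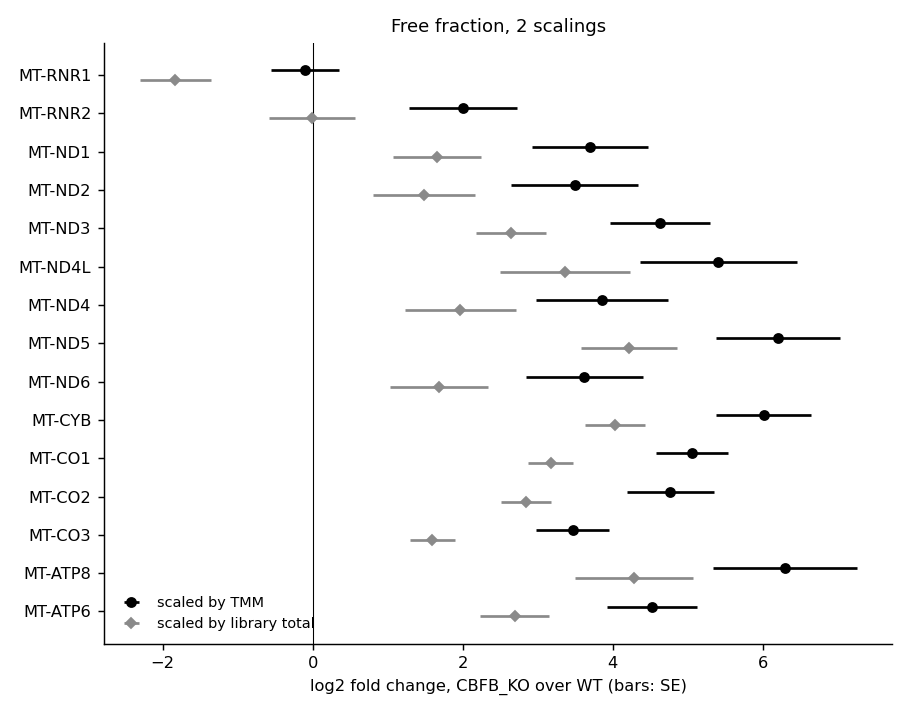
The log2 fold change of CBFB_KO over WT in the free fraction is plotted for the 15 mRNAs and rRNAs with its SE, scaled by TMM (black) and by library totals (grey). The 13 mRNAs lie above 0 under both scalings, MT-RNR2 moves from 2.00 to -0.01 and MT-RNR1 from -0.10 to -1.83.

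In mono and poly none of the 15 members was called between the genotypes by edgeR or DESeq2, and none had an unadjusted p under 0.05 in either test. The background in mono was 0.0307% of genes higher and 0.117% lower, and in poly 0.0246% higher and 0.166% lower. The log2 changes of the 15 members ran from -0.81 (MT-ND4L) to 0.68 (MT-ND6) in mono, and from -0.83 (MT-ND4L) to 1.3 (MT-ND6) in poly. The same 2 genes marked both ends. MT-ND6 took 0.00928% and 0.00847% of all counts in WT poly and 0.0220% and 0.0221% in CBFB_KO poly (SE 0.72, edgeR adjusted p = 1). MT-ND4L took 0.00765% and 0.00869% in WT poly and 0.00461% and 0.00462% in CBFB_KO poly (SE 0.87, edgeR adjusted p = 1). The genotypes did not overlap for either gene in poly. Nor did they, by the same shares, for MT-ND1, MT-ND2, MT-ND3, MT-ND4, MT-ND5, MT-CO2, MT-CO3 and MT-CYB, which were higher in CBFB_KO. The other members overlapped. The CBFB_KO pair there is the nearly identical one, and the share of all genes without overlap was not taken. The spread in this fit comes from all fractions, including free. Fitted on the 4 poly libraries alone, MT-ND6 was called higher in CBFB_KO (log2 change 1.29, SE 0.12, edgeR adjusted p = 0.0323) and was the only member called. The spread of that fit comes partly from the nearly identical CBFB_KO pair, so its SE and p-value may be too small.

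Within the mitochondrial mRNA of poly, the shares of complexes I and IV overlapped between WT and CBFB_KO. The complex I mRNAs made up 19.1% and 19.1% of mitochondrial mRNA counts in WT poly and 18.9% and 19.2% in CBFB_KO poly, and complex IV mRNAs 63.4% and 61.0% against 62.6% and 62.2%. MT-ND6 was 0.745% and 0.616% of mitochondrial mRNA counts in WT poly and 1.39% and 1.40% in CBFB_KO poly, 2.05 times as much on average (exact permutation p = 0.333). In free the order was the opposite, 0.740% and 1.1% in WT and 0.583% and 0.555% in CBFB_KO, and in mono the genotypes overlapped.

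In free, the composition varied more between the WT replicates than between the CBFB_KO replicates. The complex I mRNAs were 22.8% and 60.7% of mitochondrial mRNA counts in WT free replicates 1 and 2 and 33.6% and 35.7% in CBFB_KO free. Complex IV mRNAs were 64.3% and 28.3% in WT and 44.5% and 42.6% in CBFB_KO. In WT replicate 1 the highest single members were MT-CO3 and MT-CO2, with 25.7% and 18.6% of mitochondrial counts, and in WT replicate 2 they were MT-ND2 and MT-ND4, with 19.9% and 19.6%. Both CBFB_KO free libraries lay between the WT libraries for both complexes. Complex III, that is MT-CYB, was 4.66% and 3.25% in WT free and 9.44% and 12.3% in CBFB_KO free, and here the genotypes did not overlap (exact permutation p = 0.333).

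**Figure D4:**
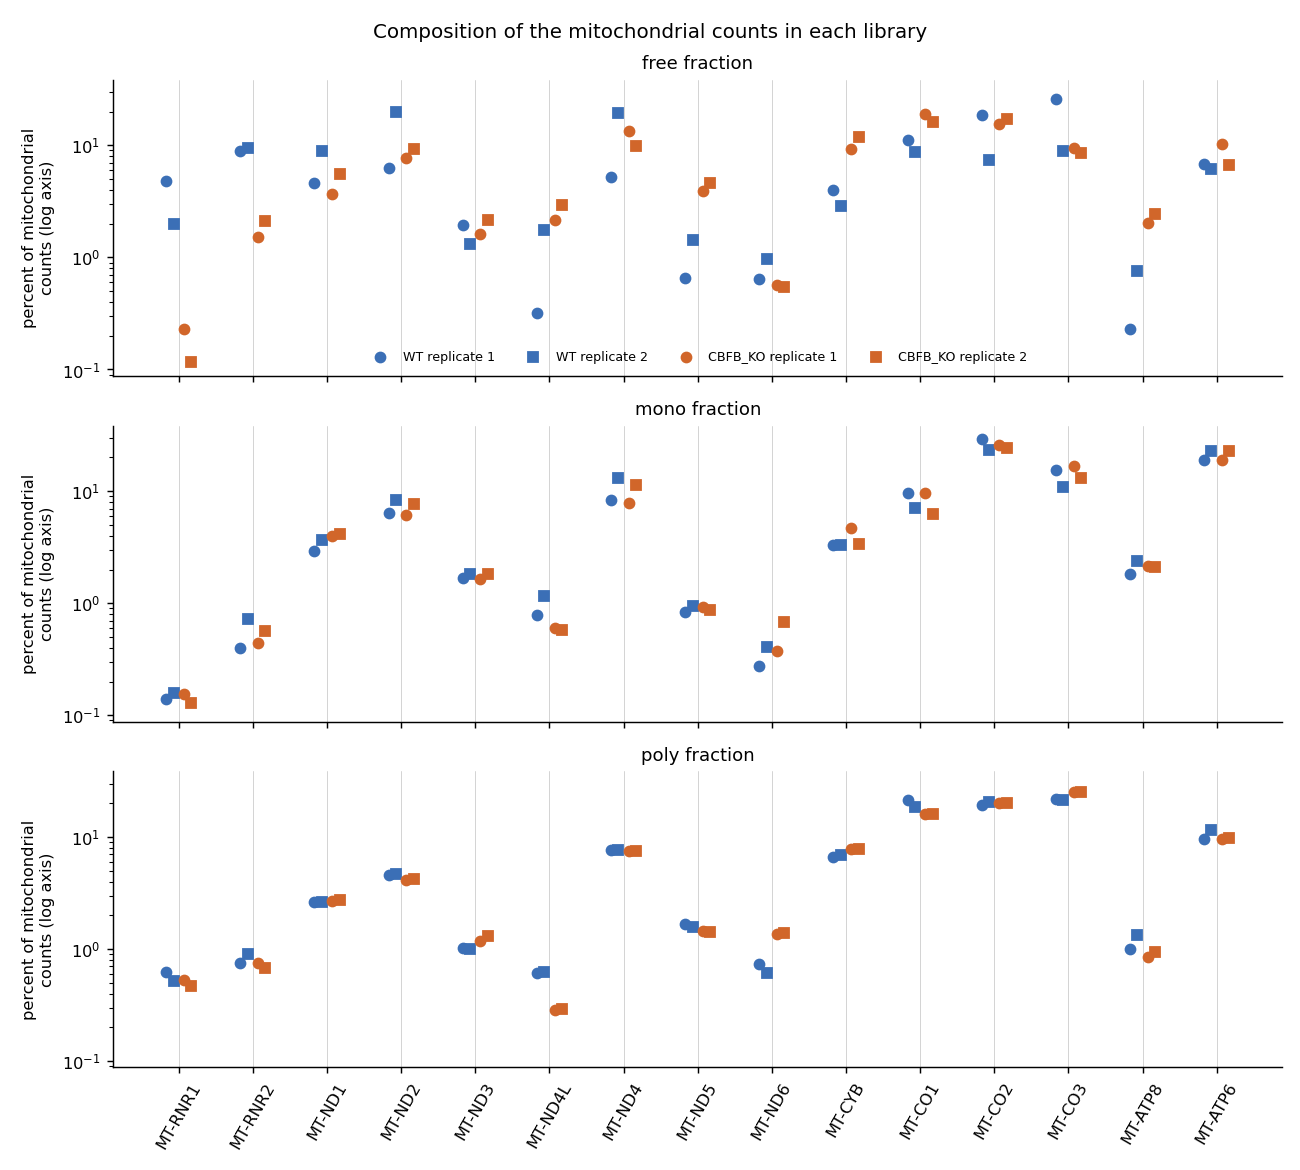
Each member's percent of the mitochondrial counts of its library is plotted on log axes for the free, mono and poly fractions, WT in blue and CBFB_KO in orange, circles for replicate 1 and squares for replicate 2. The WT free replicates lie far apart (MT-ND4, 5.24% and 19.6%), the poly libraries lie close together, and MT-ATP6 is higher in mono than in free or poly.

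The mono fraction differed from poly in the make-up of its mitochondrial mRNA, in both genotypes. The complex V mRNAs MT-ATP8 and MT-ATP6 made up 20.8% and 25.4% of mitochondrial mRNA counts in WT mono and 21.1% and 25.1% in CBFB_KO mono. In poly the values were 10.9% and 13% in WT and 10.5% and 10.8% in CBFB_KO, and in free 8.19% and 7.80% in WT and 12.5% and 9.39% in CBFB_KO. Mono lay above every free and poly library (exact permutation p = 0.0286, adjusted p = 0.0490 in both comparisons), while poly and free overlapped. With TPM in place of counts, which weights MT-ATP8 by its short length, mono and free overlapped. MT-ATP6 alone was 18.8% and 22.8% of mitochondrial counts in WT mono and 18.9% and 22.8% in CBFB_KO mono, which is 2.78 times its mean share in free.

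Complex IV mRNAs were the larger part of poly. They were 54.6% and 41.5% of mitochondrial mRNA counts in WT mono, 52.5% and 44.2% in CBFB_KO mono, and 61.0% to 63.4% in the 4 poly libraries, which did not overlap with mono (exact permutation p = 0.0286, adjusted p = 0.0490). The 3 complex IV mRNAs did not act as one. MT-CO1 was 6.31% to 9.56% of mitochondrial counts in mono and 16.1% to 21.4% in poly. MT-CO3 was 11% to 16.8% in mono and 21.2% to 25.4% in poly. MT-CO2 went the other way, with 23.1% to 29.2% in mono and 19.4% to 20.4% in poly.

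MT-CYB was 3.29% to 4.70% of mitochondrial counts in mono and 6.63% to 7.82% in poly. As a share of mitochondrial mRNA counts this complex III mRNA was 1.99 times as high in poly as in mono (exact permutation p = 0.0286, adjusted p = 0.0490). The complex I share of mitochondrial mRNA counts was 21.2% to 29.9% in mono and 18.9% to 19.2% in poly (exact permutation p = 0.0286, adjusted p = 0.0490), but the fractions overlapped with TPM in place of counts. Within complex I, MT-ND1, MT-ND2, MT-ND3 and MT-ND4 had lower shares of mitochondrial counts in poly, and MT-ND5 a higher one, 1.43% to 1.67% against 0.837% to 0.945% in mono. These single genes were not tested one by one. In mono, replicate 2 had more MT-ATP6 and MT-ND4 and less MT-CO1 than replicate 1 in both genotypes.

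Per length, the order of the members differed from the order by counts. On the deposited TPM scale MT-CO2, MT-ATP8, MT-ATP6 and MT-CO3 held the 4 highest levels in each mono and poly library. In CBFB_KO poly they stood at 5297 and 5267 TPM for MT-CO2, 5498 and 5420 for MT-CO3, 3036 and 3500 for MT-ATP8 and 2509 and 2551 for MT-ATP6. MT-CO2 and MT-CO3 differed by less there than the WT and CBFB_KO values of MT-CO3 did, with 4005 and 4505 TPM in WT. MT-ND5 was the lowest mRNA in the WT free, mono and poly libraries, at 112 to 1377 TPM, while in CBFB_KO free MT-ND6 was lowest, with 6992 and 6115 TPM against 9310 and 9756 for MT-ND5. MT-ATP8 reached 253610 and 340910 TPM in CBFB_KO free, the highest of any member, although it took only 2.02% and 2.46% of mitochondrial counts. It is 207 bases long, and the tables gave it an effective length of 24.2 to 45.3 bases. The mean fragment implied by the effective lengths was 216 and 230 bases in CBFB_KO free and 179 to 201 in the other libraries. The part of fragment length in the level of the shortest mRNAs was not tested.

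Against free, poly was lower for all 15 members in both genotypes. In WT the 15 edgeR calls were all lower, in a background of 7.99% of genes lower and 14.0% higher, with log2 changes from -3.05 (MT-ATP8) to -7.59 (MT-RNR2). In CBFB_KO the 15 were likewise lower, in a background of 16.7% lower and 14.6% higher, with log2 changes from -6.35 (MT-RNR1) to -11.32 (MT-ND4L). Both comparisons use the same free libraries as the others in their genotype. The complex IV mRNAs had log2 changes of -3.06 (MT-CO1), -3.32 (MT-CO2) and -3.60 (MT-CO3) in WT, and of -8.16, -7.80 and -6.57 in CBFB_KO. Without WT replicate 2 the WT count was 10 of 15, with MT-ATP8 at -1.48 (edgeR adjusted p = 0.244), and without WT replicate 1 it was 11. The CBFB_KO count was 15 without any one replicate, and without CBFB_KO replicate 2 the log2 changes ran from -5.85 (MT-CO3) to -10.17 (MT-ND4L).

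From free to mono the 2 rRNAs passed the test in WT, and all 15 mRNAs and rRNAs did in CBFB_KO. In WT 2 members were called by edgeR, MT-RNR1 (log2 change -5.31, SE 0.55, adjusted p = 0.00408) and MT-RNR2 (-4.91, SE 0.82, adjusted p = 0.0144), both lower in mono, in a background of 1.43% of genes lower and 5.55% higher. Without WT replicate 1 neither passed (edgeR adjusted p = 0.0624 and 0.0883). The 13 mRNAs were not called by edgeR, though DESeq2 called MT-ND1, MT-ND6 and MT-CO1 lower (adjusted p = 0.03, 0.02 and 0.0464), and MT-ATP8, MT-ATP6 and MT-CO2 had positive log2 values of 0.96, 0.75 and 0.12 (SE 0.77, 0.52 and 0.49). MT-ATP6 took 0.758% and 1.28% of all counts in WT free and 0.791% and 1.84% in WT mono, which overlap, against 7.32% and 5.86% in CBFB_KO free and 0.861% and 1.61% in CBFB_KO mono, which do not. In CBFB_KO all 15 were called lower in mono, in a background of 23.0% lower and 20.3% higher, from -3.75 (MT-ATP6) to -7.55 (MT-ND5). All 15 were still called without CBFB_KO replicate 2, at -4.13 and -7.09 for the same 2 genes.

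**Figure D5:**
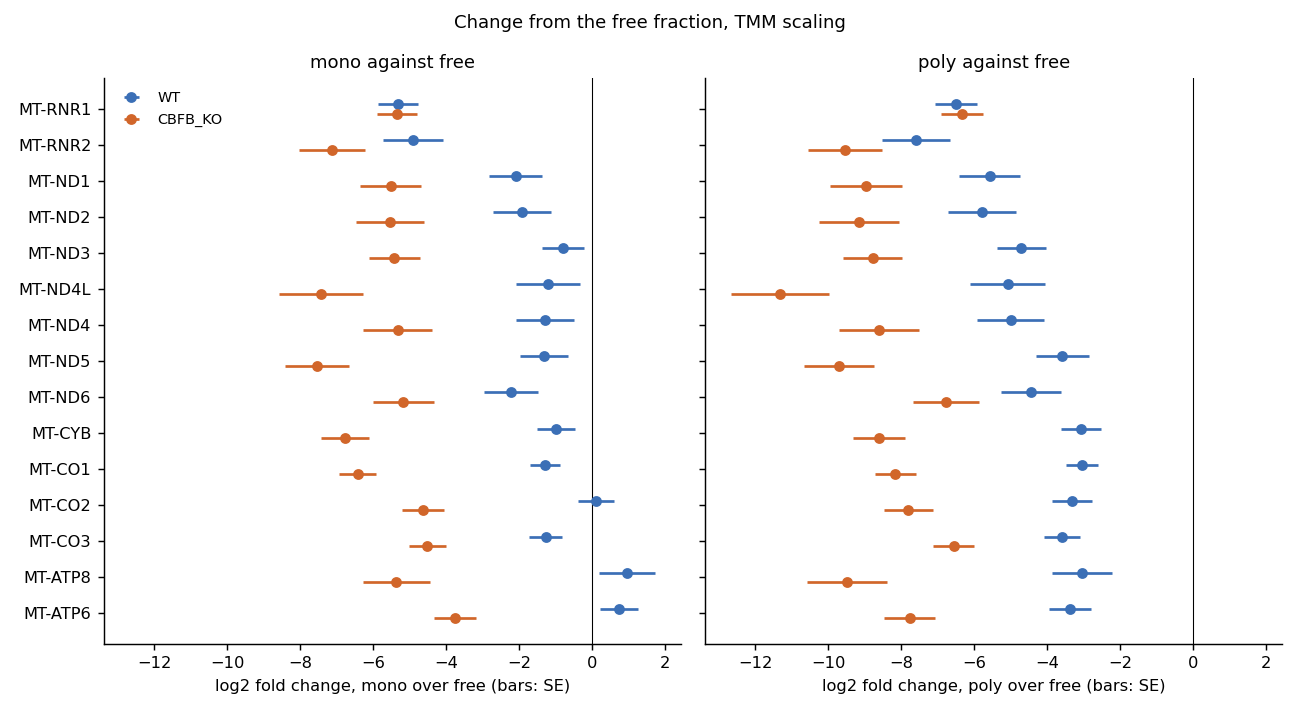
The log2 fold change from free to mono (left) and from free to poly (right) is plotted with its SE for WT (blue) and CBFB_KO (orange), under TMM scaling. MT-RNR1 has nearly the same value in both genotypes (-5.31 and -5.34 for mono), whereas CBFB_KO lies further below 0 for every mRNA.

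The difference between the genotypes in these distributions was tested directly as an interaction. For mono against free it was lower in CBFB_KO for 12 of the 15 members, in a background of 14.2% of genes lower and 4.87% higher. For poly against free 11 of 15 were lower, in a background of 14.3% lower and 4.10% higher. Without CBFB_KO replicate 2 the counts were 6 and 5, and with the CBFB_KO poly libraries as 1 sample they were 10 and 8. The calls lost with 1 poly sample were those of MT-ND1 and MT-ND2 for mono and of MT-ND1, MT-CO3 and MT-ND4 for poly. MT-RNR1, MT-RNR2 and MT-ND6 were called in neither interaction. Without the low-count filter MT-ND6 (edgeR adjusted p = 0.000958 for mono and 0.0123 for poly) and MT-RNR2 (0.0156 and 0.0385) were called in both. MT-ND6 was also called with the replicate block (adjusted p = 0.0219 and 0.0468), with a block per genotype for mono (0.0367) and with DESeq2 for mono (0.0136). MT-RNR1 had values of -0.03 for mono and 0.17 for poly (SE 0.64 in both, edgeR adjusted p = 1 and 0.881). MT-CO1, MT-CYB and MT-ND5 had -5.13, -5.78 and -6.23 for mono and -5.10, -5.55 and -6.12 for poly, and all 6 values passed the edgeR test. They passed it also without CBFB_KO replicate 2, at -4.72, -5.01 and -5.78 for mono and -4.46, -4.46 and -5.13 for poly. All of these share the free libraries with the comparison of genotypes in free, so they are not separate evidence. Scaled by library totals the median interaction of all genes moved to 1.54 in both comparisons, and the counts were 9 and 8. MT-RNR1 then moved to 1.62 for mono and 1.91 for poly (SE 0.65 in both, edgeR adjusted p = 0.0796 and 0.0544) and was not called.

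Along the genome, the 12 mRNAs of the plus strand had a Spearman correlation of 0.41 and a Pearson correlation of 0.58 between their order and their log2 change in free, a description over genes that share the same 4 libraries. With gene length the coefficients were -0.08 and -0.01.

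Reads of nuclear copies of mitochondrial DNA could be counted on the members or the reverse. The tables list 379 genes named as such copies, and 14 had a mean of at least 1 count. Together they held 0.213% to 0.619% of the counts of the members. MTCO3P12, the most abundant, had 1.54% to 2.52% of the count of MT-CO3. MTND4P12 had 0.0125% to 0.0220% of the count of MT-ND4 in 11 libraries and 0.471% in CBFB_KO free replicate 2.

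Nuclear genes that serve mitochondrial gene expression were followed as a list of 66, of which 65 were tested. Between genotypes in free, 16 were higher and 15 lower in CBFB_KO, near the background above. Without CBFB_KO replicate 2 only 1 was higher and 1 lower, and with the CBFB_KO poly libraries as 1 sample 9 and 5. The share of all genes called in those alternative fits is not given, so the loss of calls cannot be set against a background. In mono and poly none was called by edgeR or DESeq2, with 1 and 0 of the 65 at an unadjusted p under 0.05. The median log2 change of the list in free was 0.43, compared with 4.52 for the 15 mitochondrial members, and without CBFB_KO replicate 2 the values were 0.46 and 3.52. MTIF2 and GFM1, an initiation and an elongation factor of mitochondrial translation, had log2 changes of 3.60 and 3.10 (SE 0.62 and 0.68, edgeR adjusted p = 0.00172 and 0.00603). NOA1, a GTPase of mitochondrial ribosome assembly, and MTFMT, which formylates the initiator tRNA, had -2.05 and -1.78 (SE 0.34 and 0.35, edgeR adjusted p = 0.00135 and 0.0036). Without CBFB_KO replicate 2, MTIF2 and NOA1 were still called (adjusted p = 0.0356 and 0.0468) and GFM1 and MTFMT were not (0.0729 and 0.0855).

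In the gradient, calls among these nuclear mRNAs were mostly higher in poly than in free. From free to poly in WT, 21 of 65 were higher and none lower, with a median log2 change of 0.74, in a background of 14.0% of genes higher and 7.99% lower. At an unadjusted p under 0.05, 4 were lower, and DESeq2 called 23 higher and 4 lower. In CBFB_KO 22 were higher and 3 lower (background 14.6% and 16.7%), but without CBFB_KO replicate 2 only 1 was higher and none lower. From free to mono, 6 were higher and none lower in WT (background 5.55% and 1.43%), where 2 were lower at an unadjusted p under 0.05 and DESeq2 called 9 higher and 1 lower. In CBFB_KO 19 were higher and 12 lower in mono (background 20.3% and 23.0%), and without CBFB_KO replicate 2 the counts were 6 and 2. TOP1MT, the mitochondrial topoisomerase, was higher in poly by 3.24 on the log2 scale in WT and by 2.20 in CBFB_KO (SE 0.40 and 0.39, edgeR adjusted p = 0.00131 and 0.00195). TSFM, an elongation factor of mitochondrial translation, was higher by 2.15 and 2.69 (SE 0.42 and 0.43, edgeR adjusted p = 0.00572 and 0.00119). Neither was called in CBFB_KO without replicate 2 (edgeR adjusted p = 0.0862 and 0.0651). SLIRP, which stabilises mitochondrial mRNAs with LRPPRC, was higher in mono than in free by 2.65 in WT and 3.29 in CBFB_KO (SE 0.50 and 0.52, edgeR adjusted p = 0.0176 and 0.00049). Its WT call was lost without TMM factors (edgeR adjusted p = 0.0534) and with only the conditions compared in the fit (0.167). The WT calls of SLIRP and of TSFM were also lost without either WT replicate. Without WT replicates 1 and 2 in turn, the WT log2 changes were 2.8 and 2.4 for SLIRP and 2.4 and 2.1 for TSFM. In the interactions 2 of the 65 were higher and 5 lower for mono (background 4.87% and 14.2%). There 13 were higher and 13 lower at an unadjusted p under 0.05, and DESeq2 called 11 higher and 9 lower. For poly none was higher and 7 were lower (background 4.10% and 14.3%). In that comparison 9 were higher and 13 lower at an unadjusted p under 0.05, and DESeq2 called 5 higher and 9 lower. Among the 7 was LRPPRC at -3.33 (SE 0.79, edgeR adjusted p = 0.0162). No edgeR call among the 65 held in either interaction without CBFB_KO replicate 2, LRPPRC included (adjusted p = 0.224).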

How the data were processed

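RNA of 3 gradient fractions from 2 genotypes was analysed in 12 libraries, grouped by the sample labels. Gene levels were estimated by the authors with RSEM, and the submitters' processing notes also name Trimmomatic, STAR and hg19. The deposited expected counts are unnormalized estimates per gene, the deposited TPM are scaled by effective length and library by the authors, and the deposited FPKM were not used. The deposited gene lengths and effective lengths served to describe the members. Of 56632 identifiers, 49995 matched a symbol.

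Expected counts were rounded and fitted with edgeR 4.0.16 (limma 3.58.1, R 4.3.3) by quasi-likelihood, with TMM factors, filterByExpr on 6 conditions and 1 mean for each condition in a joint fit of the 12 libraries, and called at a Benjamini-Hochberg adjusted p under 0.05 over 16275 genes. The SE was obtained as the log2 change over the root of the F statistic. Shares of counts were compared by two-sided exact permutation tests of the absolute difference of means, adjusted over the 24 values of each family (genotypes and fractions apart). DESeq2 1.42.0, other scalings, no filter, replicate blocks and fits without each replicate of a genotype were alternatives. The last left out the free, mono and poly libraries of that replicate together. Scripts were tested on simulated data. Shares and figures were made in Python 3.11.15 with pandas 2.3.3, numpy 2.4.6, statsmodels 0.14.6, scipy 1.17.1 and matplotlib 3.10.9. Totals of 41050325 to 63886726 counts per library let 3 counts stand for 4.7e-06% to 7.3e-06%, and intervals of this kind cover counting error only.

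Named genes were all mitochondrial mRNAs and rRNAs, tRNAs that passed the filter or were among the 5 with the highest mean count, CBFB, and at most 4 listed nuclear factors per comparison with the smallest adjusted p past the threshold. The members and lists were chosen with earlier results of these data known. Replicate numbers were checked for pairing: samples with the same number correlated in their deviations between genotypes by 0.066 in free, 0.24 in mono and 0.034 in poly. Between fractions the values were 0.224 for WT mono with poly, 0.12 for CBFB_KO free with mono and -0.041 to 0.048 for the other 4 pairs. The main fit did not take the numbers as pairs, and the replicate blocks were alternatives. These values over all genes do not show that the numbers are unrelated for the members. The MT-RNR2 to MT-RNR1 ratio was higher in replicate 2 than in replicate 1 of every condition. So was the mitochondrial share, except in CBFB_KO poly. The CBFB_KO poly libraries, which were nearly identical, were also analysed as 1 sample, in the permutation tests as an alternative chosen after seeing the data.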

Additional observations from a re-analysis of the deposited data

Results flagged for a closer look

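The change from free to mono differed between the genotypes past the edgeR threshold for 12 members, given here as the log2 change in CBFB_KO minus that in WT. For complex I mRNAs it was -3.42 for MT-ND1, -3.60 for MT-ND2, -4.62 for MT-ND3, -6.21 for MT-ND4L, -4.03 for MT-ND4 and -6.23 for MT-ND5. It was -5.78 for MT-CYB, -5.13 for MT-CO1, -4.76 for MT-CO2, -3.24 for MT-CO3, -6.32 for MT-ATP8 and -4.50 for MT-ATP6. From free to poly 11 members differed, with -3.39 for MT-ND1, -4.07 for MT-ND3, -6.23 for MT-ND4L, -3.61 for MT-ND4, -6.12 for MT-ND5, -5.54 for MT-CYB, -5.10 for MT-CO1, -4.49 for MT-CO2, -2.97 for MT-CO3, -6.42 for MT-ATP8 and -4.39 for MT-ATP6. All 23 values rest on the same CBFB_KO and WT free libraries.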

How the results depend on the processing

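Of 114 counts of members called under alternatives, 105 stayed within 1.5 times the reported count and none turned its direction. Among the 105 are counts that stayed at 0 between the genotypes in mono and poly, which a factor of 1.5 cannot judge. Counts of 15 members are there too, and these could only fall. In mono against free of WT the count was 2, and became 5 with DESeq2, 4 without TMM factors, 5 without the low-count filter, 4 with the replicate block, and 0 with only the conditions compared in the fit, with 0 to 2 when single replicates were left out. The interactions gave 6 to 10 members for mono and 5 to 10 for poly when single replicates were left out. In poly 1 member, MT-ND6, was called between the genotypes with only the conditions compared, where the nearly identical CBFB_KO pair gives part of the spread. The replicate block gave 13 members in each interaction and, apart from WT mono against free, changed no count of members by more than 1.5 times. With the CBFB_KO poly libraries as 1 sample, 13 members were called in free and 10 and 8 in the interactions. Of 1103 values of single members, 1019 kept their direction and call. Of 360 values of nuclear factors, 292 did, and the other 68 lost the call. MT-RNR2 in free turned to -0.009 between the genotypes without TMM factors, where the median of all genes moved to -1.57. With TPM in place of counts the share difference between genotypes lost its separation for the mitochondrial share in poly (0.176 percentage points), complex III in mono (0.38) and complex V in poly (-3.34). Between fractions it was lost for the rRNA share of poly against free (-3.08), complex I of poly against mono (-1.75) and complex V of mono against free (13.4), and gained for MT-ND6 of poly against mono (1.14) and complex I of mono against free (-15.0). For each, the cause was not tested. The depth limits the tRNAs, whose highest count was 50, and 2 replicates per condition limit every comparison of the genotypes.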
